A study of Montastraea cavernosa with 311 samples.

Results

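Isogroup Mcavernosa08187, named ammonium transporter in the deposited lookup table, is 1 of 17901 host isogroups counted in the reef coral Montastraea cavernosa. An isogroup is a cluster of assembled transcripts treated as a gene. The count table also holds 13375 isogroups of the dominant algal symbiont, a Cladocopium species, which makes 31276 in all. The transporter was chosen from its lower level in mesophotic than in shallow natural colonies, so that difference is described below without a test. Tests are given only for arms and times of the transplant experiment, for levels between sites over both depths, for other genes, and for the share of symbiont counts.

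Ammonium transporters are membrane channels that let ammonia or ammonium pass between a cell and its surroundings or between compartments of a cell. In corals that carry algae, host and symbiont both fix ammonium into amino acids, through glutamine synthetase and glutamate synthase, and the ammonium that reaches the algae is thought to limit their growth. A related protein of the Rh family has been described at the membrane around the algae in the coral Acropora yongei.

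Tag-based RNA sequencing was done on 311 libraries. Of these, 265 came from natural colonies, shallow and mesophotic, at each of 4 sites (WFGB, EFGB, PRTER and CBC in the labels), and the series title places the work in the Gulf of Mexico and Belize. The other 46 carry the time label 6 or 12, given with no unit, and come from a manipulative experiment with transplants and with controls at either depth, at WFGB and EFGB. The labels describe all colonies as the same species and give no genotype, age, tissue or depth in metres. Title tags linked 26 untimed libraries to colonies of the experiment, and those of the transplanted colonies were mesophotic.

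Host counts per library ran from 20003 to 1145508, with a median of 139933, in the 298 libraries with at least 20000 host counts (253 natural and 45 timed). The other 13 were left out, among them 1 EFGB transplant at label 12, which had no transporter count. Between 391 and 7040 host isogroups were detected per library.

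The transporter had 6594 counts in the kept libraries and ranked 1348 among host isogroups by mean CPM (counts scaled to 1000000 host counts). It had at least 1 count in 206 of 298 libraries and was at 0 in the other 92. Only 1 to 3 counts stood behind it in 105 libraries. At the other end, 17 libraries with 100 or more counts held 72.7% of all its counts. In libraries at 0, the upper limit that 3 counts set ran from 4.27 to 94.3 CPM, with a median of 13.6 CPM. These limits cover counting error only.

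Of 10 host isogroups with the name ammonium transporter in the lookup table, 7 were in the count table, and the other 3 were not analysed here. Mcavernosa08187 held 96.2% of the 6876 counts of these 7. Mcavernosa21663 had 247 counts in 4 libraries, 240 of them in 1 shallow CBC library (1185 CPM) where Mcavernosa08187 had 1 count. Mcavernosa06214 had 7 counts, Mcavernosa06213 had 3, Mcavernosa06211 had 2, and Mcavernosa08189 and Mcavernosa21662 had 1 each. None of these 6 passed the filter on low counts. How reads were shared between isogroups of the same name is not given in the sources used here.

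In natural colonies the median of the transporter was lower at the mesophotic depth at each of the 4 sites, in the values it was chosen from. At WFGB the 35 shallow libraries ran from 0 to 571 CPM with a median of 97.2 CPM, and the 28 mesophotic ones from 0 to 578 CPM with a median of 70.9 CPM. At EFGB the 39 shallow libraries ran from 0 to 661 CPM with a median of 89.7 CPM, and the 21 mesophotic ones from 0 to 532 CPM with a median of 13.7 CPM. Both depths overlapped over nearly their whole range at these sites.

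PRTER had the lowest values. Its 41 mesophotic libraries ran from 0 to 43.2 CPM with a median of 0, and 8 of the 41 had any count, with at most 4. Its 31 shallow libraries ran from 0 to 840 CPM with a median of 3.87 CPM, and 19 had a count. At CBC the 36 shallow libraries ran from 0 to 1412 CPM with a median of 7.30 CPM and 26 had a count, while the 22 mesophotic ones ran from 0 to 299 CPM with a median of 0 and 10 had a count. The groups overlapped at 0 at both sites.

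**Figure D1:**
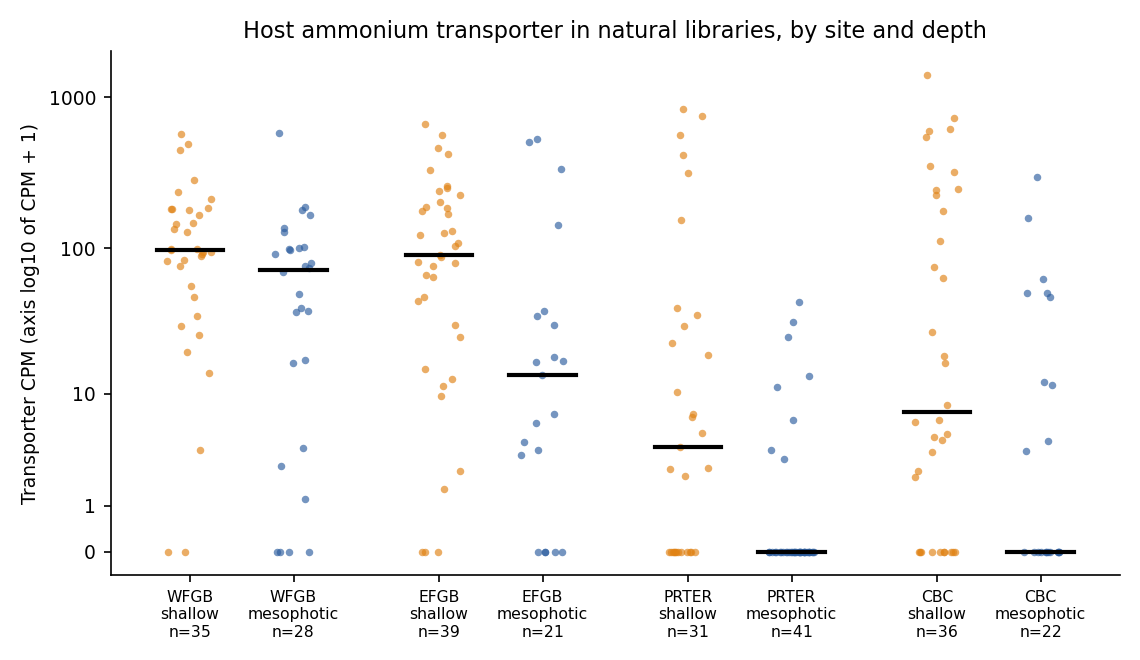
Transporter CPM in each natural library kept (points, with a small sideways spread), by site and depth, with the group median as a bar, on an axis of log10 of CPM + 1. Shallow medians were 97.2, 89.7, 3.87 and 7.30 CPM and mesophotic medians 70.9, 13.7, 0 and 0 CPM at WFGB, EFGB, PRTER and CBC.

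Ordered by median, WFGB shallow stood first, followed by EFGB shallow, WFGB mesophotic, EFGB mesophotic, CBC shallow and PRTER shallow, with both groups of median 0 last. The interquartile ranges of neighbours in this order overlapped throughout. Means gave another order, since a few libraries carried them. CBC shallow had the highest mean, 162 ± 297 CPM (SD, n = 36), against 138 ± 134 CPM at WFGB shallow (SD, n = 35), 145 ± 158 CPM at EFGB shallow (SD, n = 39) and 104 ± 228 CPM at PRTER shallow (SD, n = 31). Mesophotic means were 84.5 ± 112 CPM at WFGB (SD, n = 28), 81.4 ± 164 CPM at EFGB (SD, n = 21), 31.7 ± 70.2 CPM at CBC (SD, n = 22) and 3.35 ± 9.21 CPM at PRTER (SD, n = 41). In each group the SD was close to the mean or above it.

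In log2 CPM with a prior count of 2, on which a library without a count sits at 3.24, mesophotic minus shallow was -0.85 ± 0.40 at WFGB, -1.47 ± 0.50 at EFGB, -1.30 ± 0.40 at PRTER and -1.17 ± 0.52 at CBC (± SE of the difference, with no test). The edgeR model of the counts gave -0.43 ± 0.75, -0.58 ± 0.81, -5.18 ± 0.78 and -3.04 ± 0.92 in the same order, and -2.31 ± 0.41 over the 4 sites. DESeq2 gave -0.05 at WFGB and turned the sign at EFGB, to 0.40, and edgeR without a filter on low counts gave -0.00040 at WFGB. The edgeR model called 482 of 3703 host isogroups over the 4 sites (13.0%) at a Benjamini-Hochberg adjusted p under 0.05, with 186 higher (5.02%) and 296 lower (7.99%) in mesophotic libraries. With limma on log2 CPM it was 36 (0.972%). Nothing is read from these shares, since this contrast chose the transporter.

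Library blocks were inferred from barcode sets that restart along the library numbers, since the labels name no batch, and the difference was also taken within blocks. At WFGB it was -0.63, -0.02, -1.49 and -1.83 in 4 blocks and 2.69 in a block with a single mesophotic library. At EFGB it was -3.44, -1.35 and -3.15 in 3 blocks, 0.23 in another, and -2.39 in a block with a single shallow library. At PRTER it was -1.08 and -1.50 in the 2 blocks of that site, and CBC lies in 1 block. Libraries whose titles carry X-14 were all shallow (22 at WFGB and 25 at EFGB). Without them the edgeR difference over the 4 sites was -2.57.

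The number of host isogroups detected moved with the transporter within groups, but its medians did not follow the depth difference at PRTER and CBC. At WFGB the median number was 4449 in shallow and 3740 in mesophotic libraries, at EFGB 3570 against 1782, at PRTER 1753 against 1820, and at CBC 1257 against 1245. Across the 253 natural libraries, as deviations from the mean of each site and depth, log2 CPM of the transporter had a Pearson r of 0.36 with the log2 number of isogroups detected and of -0.21 with the log2 host total. By group the r with isogroups detected ran from 0.05 in PRTER shallow to 0.64 in CBC mesophotic libraries. These values share the library and its depth and are given as a description. Among libraries with 2000 or more isogroups, 32 of 32 shallow and 7 of 8 mesophotic ones at EFGB had a transporter count, and 9 of 12 shallow and 6 of 16 mesophotic ones at PRTER. In the same order it was 31 of 32 and 21 of 23 at WFGB, and 5 of 5 and 4 of 4 at CBC. With fewer than 2000, the figures were 4 of 7 and 9 of 13 at EFGB, and 10 of 19 and 2 of 25 at PRTER. At WFGB they were 2 of 3 and 3 of 5, and at CBC 21 of 31 and 6 of 18. The part of the number of isogroups in the depth difference was not tested, and fewer cells that make the transcript cannot be told apart from less transcript per cell.

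**Figure D2:**
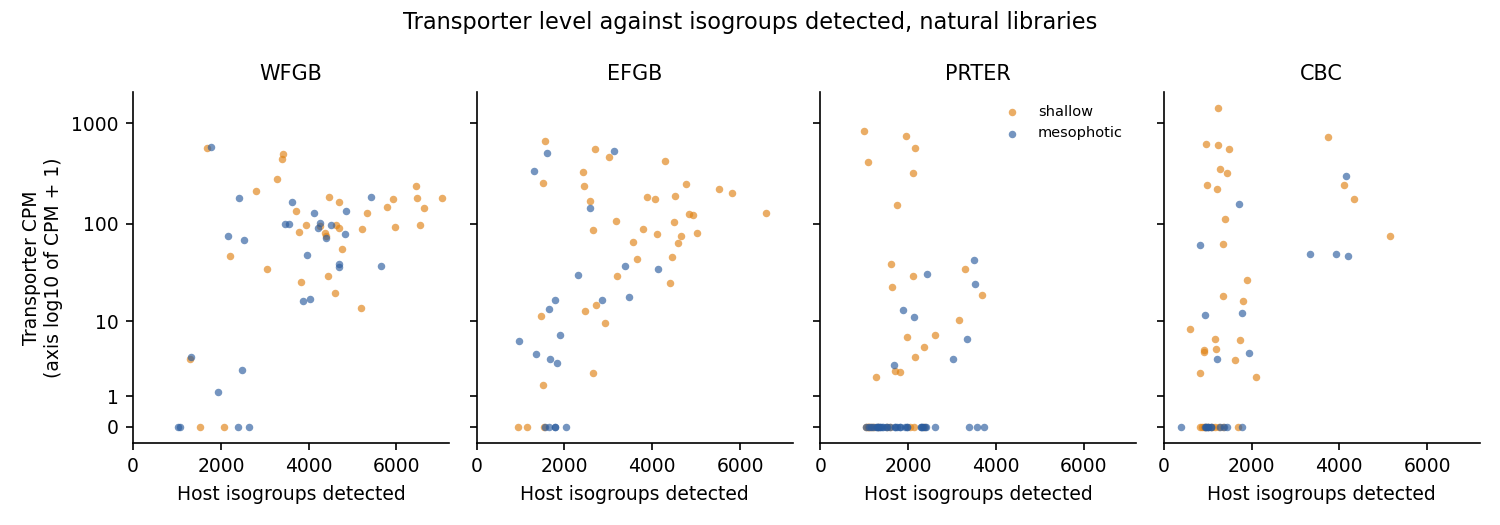
Transporter CPM (vertical axis, log10 of CPM + 1) against the number of host isogroups detected (horizontal axis) in each natural library, 1 panel per site, with shallow and mesophotic libraries in separate colours. Most libraries at 0 lie under 2000 isogroups, and PRTER also holds mesophotic libraries at 0 well beyond that.

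Lists of genes picked for other cell types, by words in their names alone, did not follow the transporter closely. Such a word need not make a member a marker of that cell type. Within site and depth groups, the r of its log2 CPM with the summed level of each list was 0.01 for 40 isogroups of mucus and gland cells, 0.11 for 15 of muscle, 0.13 for 55 of cilia, 0.21 for 15 of neurons, 0.10 for 8 of the germ line (7 with counts) and -0.02 for 2 of nematocytes. The nematocyst markers had a median of 0 CPM in each group. The gland cell list had lower medians in mesophotic libraries at both sites where the transporter was rarest. Its median was 840 CPM in mesophotic and 2977 CPM in shallow libraries at PRTER, with ranges of 0 to 5783 and 12.1 to 18420 CPM, and 821 and 2984 CPM at CBC, with ranges of 8.86 to 9069 and 10.4 to 11177 CPM. At EFGB the gland cell medians were 1031 CPM in mesophotic and 929 CPM in shallow libraries, and the lists of cilia and neurons had lower mesophotic medians there. The cilia list had 669 against 1584 CPM, with ranges of 41.7 to 2504 and 6.29 to 4385 CPM, and the neuron list 213 against 454 CPM, with ranges of 0 to 1049 and 0 to 1327 CPM. Other medians went the other way. The neuron list was higher in mesophotic libraries at PRTER (126 against 46.7 CPM) and CBC (48.8 against 44.8 CPM). At WFGB the mesophotic medians were higher for gland cells (1066.5 against 890 CPM) and cilia (1664 against 1554.5 CPM), and lower for neurons (388 against 517 CPM). The cilia list was lower in mesophotic libraries at PRTER (602 against 847 CPM) and CBC (792 against 848 CPM). The part of these lists in the transporter difference was not tested.

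The spread of the depth difference over the 4 sites is also given as a description with no test, since it is made of the libraries that chose the transporter. The F value of depth by site was 9.75 by edgeR and 0.316 by limma on log2 CPM, where the 4 differences lay close together. In the model of counts the difference was greatest at PRTER, where 1 shallow library held 637 of 1166 counts. Leaving that library out gave -4.62 there and F = 7.99.

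Levels over both depths differed between sites (edgeR F = 7.08, adjusted p = 4.85e-04, and limma F = 16.3, adjusted p = 5.14e-09). These p-values come from the same natural libraries that chose the transporter, though through another contrast, and carry that limit. Mean log2 CPM was 6.23 ± 1.60 at WFGB (SD, n = 63), 5.92 ± 1.93 at EFGB (SD, n = 60), 5.02 ± 2.19 at CBC (SD, n = 58) and 4.05 ± 1.61 at PRTER (SD, n = 72). Counts pooled by site gave another order, 138 CPM at CBC, 123 at EFGB, 89.7 at WFGB and 62.9 at PRTER. Among all isogroups tested 56.8% differed between sites, so a call here is common. PRTER and CBC each fell in inferred library blocks of their own, so site and block cannot be told apart for them. Median isogroups detected were 4124 at WFGB, 2703 at EFGB, 1257 at CBC and 1814.5 at PRTER. Median host totals were 53072, 75094, 223095 and 248022 in the same order. The part of these 2 measures in the site levels was not tested.

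At WFGB symbiont counts made up a median of 8.20% of counts in shallow and 10.7% in mesophotic libraries, at EFGB 8.40% against 5.79%, at PRTER 10.8% against 20.1%, and at CBC 6.45% against 8.65%. Within groups the transporter had a Pearson r of 0.088 with the log2 odds of that share (permutation p = 0.177, n = 253) and a Spearman rho of 0.145 (permutation p = 0.0288, n = 253). Without the 2 libraries farthest in share r was 0.085 and rho 0.146 (permutation p = 0.0288). With at least 100000 host counts rho was 0.061 (permutation p = 0.536, n = 141), and without the libraries dated X-14 it was 0.066 (permutation p = 0.394, n = 206). With host total and number of isogroups regressed out r was -0.0039 (permutation p = 0.951). Of the 8 groups alone, WFGB shallow had the highest r, 0.40 (permutation p = 0.0177, adjusted over the 8 groups 0.142, n = 35), and EFGB mesophotic the lowest, -0.36 (permutation p = 0.106, adjusted 0.283, n = 21). By ranks WFGB shallow had a rho of 0.47 (permutation p = 0.00545, adjusted over the 8 groups 0.0436), and no other group had an adjusted value under 0.05. In checks of this group chosen after seeing the data, rho was 0.49 without its 2 libraries farthest in share (permutation p = 0.00403). In its 22 libraries dated X-14 rho was 0.50 (permutation p = 0.0184), and in the other 13 it was 0.41 (permutation p = 0.163). With host total and number of isogroups regressed out the correlation in this group was 0.30 (permutation p = 0.0807). Within the 8 inferred library blocks r ran from -0.18 to 0.44, and none of the 8 had a permutation p under 0.05.

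In the experiment the transporter was measured in 45 libraries outside the natural contrast, although most come from colonies that also gave a natural library. At label 6 the 8 transplants had 0, 0, 4.67, 157 and 164 CPM at WFGB and 0, 66.2 and 77.8 CPM at EFGB. The 7 mesophotic controls had 1.45, 4.33, 47.9, 314 and 422 CPM at WFGB and 13.6 and 144 CPM at EFGB. The 10 shallow controls had 0, 2.78, 10.6, 47.8 and 61.4 CPM at WFGB and 0, 2.59, 3.96, 68.1 and 391 CPM at EFGB. All 3 arms overlapped, each with libraries under 5 CPM and over 100 CPM.

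Neither comparison of transplants with controls at label 6 passed the test. Transplants minus mesophotic controls was -1.87 ± 1.86 on the log2 scale (edgeR, ± SE, adjusted p = 0.757), where 1.43% of 4052 isogroups were called and the median of all was 0.04. Transplants minus shallow controls was -0.03 ± 2.05 (edgeR adjusted p = 0.999), with 1.70% called and a median of 0.57. Mesophotic minus shallow controls was 1.83 ± 1.97 (edgeR adjusted p = 0.756), with 2.20% called and a median of 0.49. This difference has the opposite sign to that in natural colonies, but 413 of the 477 counts of the mesophotic controls came from the WFGB library of colony 177, and without it the difference was 0.50 ± 0.97. The exact permutation of arms within sites gave differences in log2 CPM of -0.87 (2-sided p = 0.431), 0.31 (p = 0.731) and 1.18 (p = 0.256) in the same order.

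At label 12 the transplants were low. The 5 libraries had 0, 0 and 24.7 CPM at WFGB and 0 and 9.57 CPM at EFGB, so that 3 were at 0. The deepest of these, with 406543 host counts, had an upper limit of 7.38 CPM. The 6 mesophotic controls had 19.5, 32.3, 39.6, 191 and 237 CPM at WFGB and 0 CPM at EFGB. The 9 shallow controls had 0, 17.1, 41.6, 43.5 and 387 CPM at WFGB and 0, 20.7, 145 and 1143 CPM at EFGB. No transplant was above 24.7 CPM, a level passed by 4 of 6 mesophotic and 5 of 9 shallow controls, and the arms overlapped. Transplant libraries held more host counts, with a median of 390284, against 49206 in mesophotic and 116697 in shallow controls. At these medians 1 count is 2.56, 20.3 and 8.57 CPM. The transplant at 24.7 CPM had 9 counts. Mesophotic controls at 32.3 and 39.6 CPM had 2 and 1 counts, and those at 191 and 237 CPM had 9 each. Shallow controls at 41.6 and 43.5 CPM had 1 and 3 counts, and those at 145, 387 and 1143 CPM had 26, 28 and 629.

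**Figure D3:**
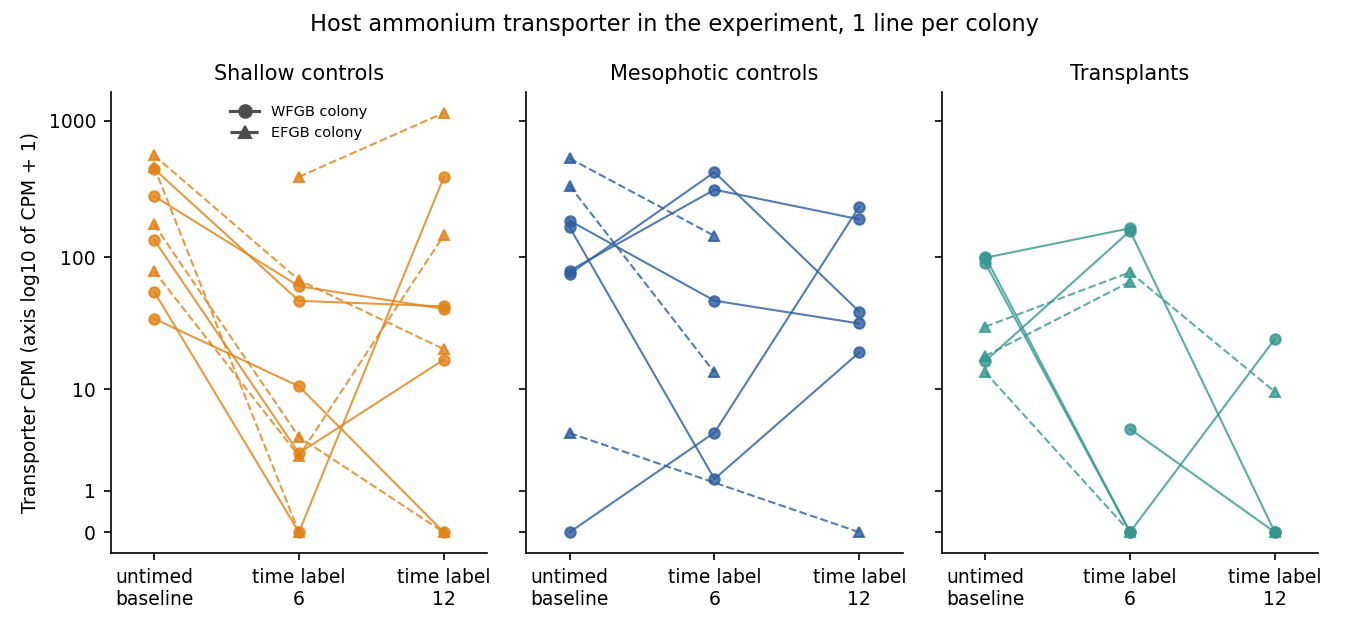
Transporter CPM in the experiment on an axis of log10 of CPM + 1, with 1 line per colony from its untimed baseline to the time labels 6 and 12 (circles and solid lines WFGB, triangles and dashed lines EFGB) and a panel per arm. All 9 shallow controls with both libraries were lower at label 6 than at baseline, and the 5 transplants at label 12 lie between 0 and 24.7 CPM. A line without a marker at label 6 joins a colony with no library there.

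Transplants minus mesophotic controls at label 12 was -2.69 ± 2.32 (edgeR adjusted p = 0.442), and transplants minus shallow controls -3.71 ± 2.41 (edgeR adjusted p = 0.293). Mesophotic minus shallow controls was -1.02 ± 2.11 (edgeR adjusted p = 1). In all 3 comparisons edgeR called 0 of 4052 isogroups (0%), with 1135, 1193 and 260 at an unadjusted p under 0.05. The medians of all isogroups were -0.34, -0.61 and -0.15. Limma called 2, 1 and 0. DESeq2 called the transporter lower in transplants than in shallow controls (-4.89, DESeq2 adjusted p = 0.0227), in a comparison where it called 424 isogroups (10.5%), and limma's adjusted p was 0.493. The exact permutation of arms within sites gave -1.66 (2-sided p = 0.101), -2.12 (p = 0.0869) and -0.24 (p = 0.844) in log2 CPM. Adjusted over the 9 comparisons of arms and times these were 0.455, 0.455 and 0.844.

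The transplants at label 12 also had lower medians in other measures, with ranges that overlapped those of controls. Their median was 1633 isogroups detected (1268 to 3022), against 4096 in mesophotic (1390 to 4816) and 3221 in shallow controls (1130 to 5454). Their median symbiont share was 0.550% (0.403% to 13.8%), against 11.1% (6.78% to 13.0%) and 8.71% (1.75% to 14.6%). With the number of isogroups as a covariate in limma, transplants minus shallow controls was -1.52 (adjusted p = 0.780). The part of these measures in the transporter's level was not tested. Labels 6 and 12 coincide with the title dates V-16 and IX-16, except for 2 EFGB transplants at label 6 dated IX-16, so time and collection date cannot be told apart.

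Label 12 minus label 6 was -2.19 ± 2.18 in transplants (edgeR adjusted p = 0.547), -1.38 ± 2.03 in mesophotic controls (edgeR adjusted p = 0.823) and 1.48 ± 1.64 in shallow controls (edgeR adjusted p = 0.661). None passed. For transplants and mesophotic controls 0% of isogroups were called, with 1141 and 498 at an unadjusted p under 0.05, and for shallow controls 3.21%. Colonies with both labels gave paired values. In transplants 3 of 4 were lower at label 12 (2-sided exact sign-flip p = 0.375, smallest possible 0.125), in mesophotic controls 3 of 5 (p = 0.813, smallest possible 0.0625) and in shallow controls 5 of 9 (p = 0.316, smallest possible 0.00391). Single colonies differed widely in both directions. Shallow WFGB colony 120 had 0 CPM at label 6 and 387 CPM at label 12, and transplanted WFGB colony 54 had 157 and 0 CPM.

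**Figure D4:**
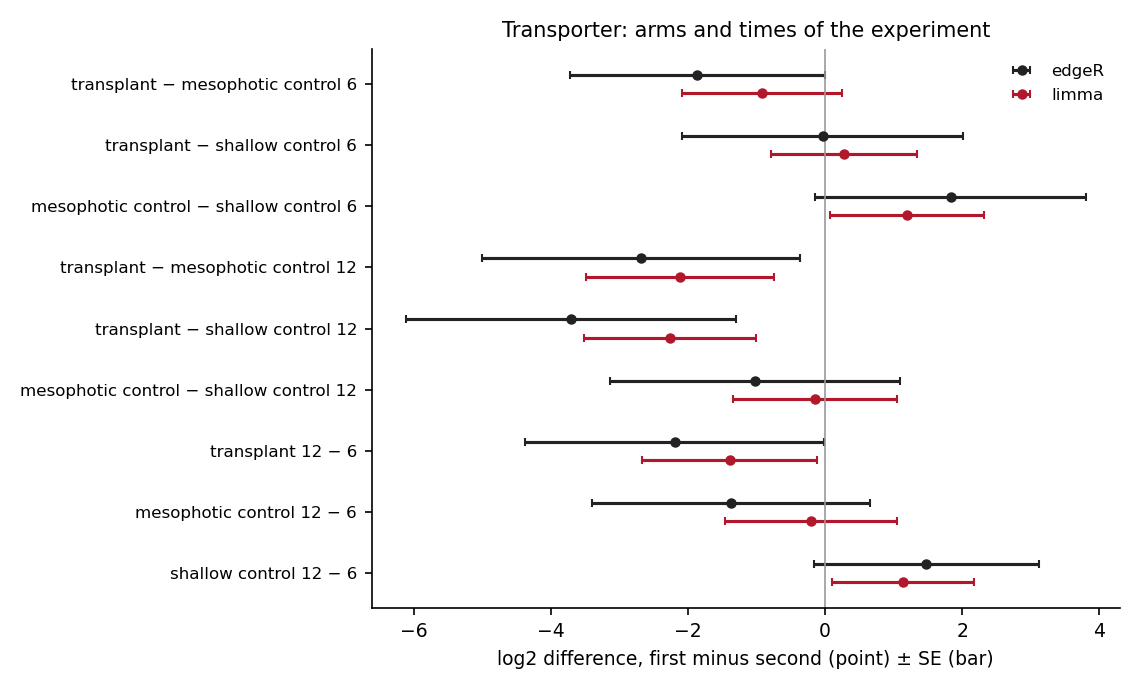
The log2 difference of the transporter (points) with its SE (bars) for 6 comparisons of arms and 3 of times in the experiment, first group minus second, from edgeR and from limma. Differences ran from -3.71 to 1.83 by edgeR, and none passed an adjusted p of 0.05 by either.

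Set against the untimed library of the same colony, the shallow controls were lower at label 6 in 9 of 9 colonies, with a median change of -2.88 in log2 CPM. Mesophotic controls were lower in 4 of 7 (median -1.77) and transplants in 3 of 7 (median 0.67). At label 12 shallow controls were lower in 6 of 8 colonies (median -2.48), mesophotic controls in 4 of 6 (median -0.67) and transplants in 3 of 3 (median -1.47). No test is given, because the untimed libraries belong to the contrast that chose the transporter. The median number of isogroups detected was also lower at label 6, at 1448 against 3383 at baseline in shallow controls, 2684 against 3128 in mesophotic controls and 2793 against 3540 in transplants. Its part in these changes was not tested. The baselines of shallow controls were high to begin with, at 35.2 to 560 CPM, against 13.7 to 102 CPM in transplants. Those of mesophotic controls ran from 0 to 532 CPM. Each transplant baseline rested on 1 to 3 counts, against 3 to 107 in shallow and 0 to 81 in mesophotic controls. Transplanted colonies 57, 54 and 68, which have label 12, had 1, 1 and 3 counts at baseline. In those 3 libraries 3 counts make 91.6, 50.1 and 102 CPM.

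Shallow EFGB colony 190 had the highest value of its group at both labels, 391 CPM at label 6 and 1143 CPM at label 12, with 131 and 629 counts. Its untimed library, under the minimum with 19837 host counts, had 3 counts or 151 CPM. No other shallow EFGB colony was above 68.1 CPM at label 6 or above 145 CPM at label 12.

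Other genes of nitrogen handling gave no call over the 4 sites and a few at single sites, and those named at single sites were named after their values were seen. Of 15 host isogroups of glutamine and glutamate enzymes, 2 passed the filter in natural libraries, and neither was called with depth over the 4 sites. Glutamine synthetase Mcavernosa20867, which joins ammonium to glutamate, had a log2 difference of 0.51 ± 0.34 (edgeR adjusted p = 0.366), detected in 30 of 112 mesophotic and 53 of 141 shallow libraries. At CBC alone it was higher in mesophotic libraries (3.02 ± 0.88, edgeR adjusted p = 0.00547), as was glutamate synthase Mcavernosa22259 (2.58 ± 0.97, edgeR adjusted p = 0.0366), at a site where edgeR called 12.2% of isogroups higher and limma called neither. At EFGB limma alone called glutamine synthetase, as lower (-1.25 ± 0.39, limma adjusted p = 0.0160), where it called 22.9% of isogroups lower. Over the 4 sites limma gave -0.18 for glutamine synthetase and -0.11 for glutamate synthase.

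Of 10 isogroups of the urea cycle and purine breakdown 4 were tested, and none was called over the 4 sites. Ornithine carbamoyltransferase Mcavernosa10627, a urea cycle enzyme, had a difference of 0.94 ± 0.43 over the sites (edgeR adjusted p = 0.138) and was higher in mesophotic libraries at CBC by edgeR (2.59 ± 0.87, adjusted p = 0.0184). Argininosuccinate lyase Mcavernosa25359, the next enzyme but one of that cycle, was also higher there (2.12 ± 0.81, edgeR adjusted p = 0.0411). Mcavernosa32498, named for a carbamoyl-phosphate synthetase that starts pyrimidine synthesis, was higher at PRTER by edgeR (2.82 ± 0.78, adjusted p = 0.00387), where 9.05% of isogroups were called higher, and lower at EFGB by limma (-1.18 ± 0.33, adjusted p = 0.00959). Limma called no member of either list at WFGB, PRTER or CBC. Over the 4 sites limma gave -0.04 for ornithine carbamoyltransferase, 0.39 for argininosuccinate lyase and -0.27 for Mcavernosa32498. A single library held 36.1%, 9.63% and 42.1% of their counts in the same order.

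Of 24 isogroups that handle carbon dioxide and protons 8 were tested, and over the 4 sites 2 were lower in mesophotic libraries by edgeR, against 7.99% of all isogroups, and 1 by limma. Carbonic anhydrase II (Mcavernosa13573), an enzyme that turns carbon dioxide into bicarbonate and back, differed by -1.78 ± 0.44 (edgeR adjusted p = 0.00154, limma adjusted p = 0.00465). This gene is named because its edgeR p was the smallest of the list in this same contrast. A subunit c of the vacuolar proton pump, Mcavernosa12777, named after its value was seen, differed by -1.75 ± 0.43 (edgeR adjusted p = 0.00162) and was not called by limma (adjusted p = 0.376). At single sites edgeR called 1 of the 8 lower at WFGB, 0 at EFGB, 2 at PRTER and 2 at CBC, against 0.0810%, 4.97%, 8.88% and 12.2% of all isogroups. Limma called 3 lower at EFGB, against 22.9% of all isogroups. Carbonic anhydrase II was among those that edgeR called at PRTER (-4.01 ± 0.82, edgeR adjusted p = 5.73e-05). None of the 8 was called higher, over the sites or at any of them. The list's median was -0.67, against -0.06 over all isogroups tested. Of 22 isogroups that carry sterols, sugars or water 5 were tested, and none was called over the 4 sites. Glucose transporter Mcavernosa32493 had a difference of 1.02 ± 0.43 over the sites by edgeR (adjusted p = 0.106) and 0.13 by limma. At PRTER edgeR called it higher (4.14 ± 0.97, adjusted p = 4.66e-04) and limma did not. A single library held 32.5% of its counts. Niemann-Pick type C2 Mcavernosa16997, a sterol carrier, was lower in mesophotic libraries at EFGB by edgeR (-3.30 ± 1.04, adjusted p = 0.0325) and limma (-1.35 ± 0.36, adjusted p = 0.00734). There edgeR called 4.97% and limma 22.9% of all isogroups lower. Over the sites its difference was -0.09 by edgeR and -0.24 by limma, and a single library held 35.2% of its counts. Mcavernosa02048 had a difference over the sites of -0.11 ± 0.35 (edgeR adjusted p = 0.919).

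In the algae, 24 isogroups were named for uptake or fixing of nitrogen, and 3 passed the filter in the 103 natural libraries with at least 20000 symbiont counts. None was called with depth, where edgeR called 42 of 459 symbiont isogroups (9.15%) and limma 0, with 16 at an unadjusted p under 0.05. The symbiont's ammonium transporter Cladocopium195137 had a log2 difference of 0.54 ± 0.59 (edgeR adjusted p = 1), with counts in 27 of 53 mesophotic and 12 of 50 shallow libraries. These detections pool the sites, so they are not a contrast of depth alone. The symbiont's glutamine synthetase Cladocopium237348 had -0.78 ± 2.12 (edgeR adjusted p = 1).

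In the experiment edgeR called 2 of these host genes in any comparison, both named after their values were seen. Glutamate synthase Mcavernosa22259 was lower in mesophotic than in shallow controls at label 6 (adjusted p = 0.0498), with 1 count in 7 libraries against 433 counts in 5 of 10, where 2.20% of isogroups were called, and limma did not call it (adjusted p = 0.620). Glucose transporter Mcavernosa00695 was higher in shallow controls at label 12 than at label 6 (edgeR adjusted p = 0.0412), with 134 counts in 2 of 9 libraries against 1 count in 10, where 3.21% were called, and limma did not call it (adjusted p = 0.604).

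No named host isogroup followed the transporter closely. Among 1199 that were detected in at least 149 of 298 libraries, the Pearson r of log2 CPM with the transporter had a median of 0.21 and a highest value of 0.47. The 5 highest were Meprin A Mcavernosa06514, a secreted or membrane metalloprotease (r = 0.47), nuclear respiratory factor 1 Mcavernosa12429, a transcription factor (r = 0.46), optic atrophy 1 Mcavernosa12638, a mitochondrial fusion protein (r = 0.45), a phosphatase Mcavernosa08903 (r = 0.45) and a coiled-coil-helix domain protein Mcavernosa23426 (r = 0.45). As deviations from group means these were 0.36, 0.34, 0.31, 0.32 and 0.34, against a median of 0.15. At CBC mean log2 CPM of Meprin A was higher in mesophotic than in shallow libraries, 4.54 against 3.55, and that of the transporter lower, 4.30 against 5.47. All these values share library depth and the number of isogroups detected.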

How the data were processed

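Whole-number counts per isogroup and library were deposited by the authors in a single table for host and symbiont, with a lookup table of gene names. The aligner, read filters, duplicate removal and strand were not given in the sources used here. Each library was matched to its column by the library number in its title, 0 columns of values were unmatched, and colonies were linked by title tags. The transporter, the gene lists and the tests were chosen with earlier results of these data known.

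CPM was taken on host totals, without a length correction. Libraries under 20000 host counts were left out. edgeR 4.0.16 in R 4.3.3 (TMM, filterByExpr, robust quasi-likelihood) was fitted over all host isogroups with Benjamini-Hochberg adjustment, with 1 mean per site and depth for natural libraries, and 1 mean per arm and time plus site for the experiment. limma 3.58.1 and DESeq2 1.42.0 were alternatives. Both edgeR and limma were also run on simulated counts. These had the same spread for every gene, which real counts need not have, so nothing is read from them here. Exact permutations of arms or times within sites used the transporter's log2 CPM, and the symbiont relation 100000 permutations within groups. The labels do not say whether libraries of a group come from separate colonies, so p-values measure the spread between these libraries. Genes named beside the transporter were those of its own name, the smallest p in each direction within each list in the natural contrast, and the 5 most like it over the kept libraries.

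The pairing by colony was checked over 1660 isogroups. Libraries of a colony at both labels had a median correlation of 0.11 in their deviations from group means, from -0.10 to 0.24, with 10 of 18 pairs above 0.1. No sequence of the transporter was used here.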

Additional observations from a re-analysis of the deposited data

Results flagged for a closer look

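Of 7 groups of 4 to 10 libraries examined, 3 held a library far above the others in transporter CPM. A library counts as far when its gap to the nearest other, over the range of the group, passes Dixon's 95% value. For values with a normal spread chance marks about 1 group in 20, which CPM with many zeros need not follow. Of these, 2 are the same colony, tag 190, among the shallow EFGB controls, with 390.6 CPM at label 6 and 1143 CPM at label 12. The third is the shallow WFGB control of colony 120 at label 12, with 387 CPM and 28 counts.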

How the results depend on the processing

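Of 99 alternatives for the 9 comparisons of arms and times, 90 kept the sign and stayed on the same side of the threshold. The exceptions follow. DESeq2 called transplants minus shallow controls at label 12 (-4.89, adjusted p = 0.0227). The other fits of this comparison, with those that leave out single libraries included, gave adjusted p of 0.124 to 0.780. Transplants minus shallow controls at label 6 changed sign with limma (0.27), host totals alone (0.22), at least 100000 host counts (0.45), WFGB alone (1.54) and without the EFGB transplants dated IX-16 (0.32). Mesophotic minus shallow controls at label 12 was 0.0033 at WFGB alone, and label 12 minus 6 in mesophotic controls was 0.076 with RLE scaling. With colony as a replicate block, the paired values of label 12 minus 6 were -2.10 in transplants, 0.34 in mesophotic and 0.47 in shallow controls, and none was called. At 100000 host counts 3 comparisons had no value, since the single mesophotic library left at label 12 had no transporter count. RLE scaling or host totals alone moved the median of all isogroups by -1.01 to 0.64.

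Leaving out single libraries gave, at label 6, -2.91 to -0.39 (transplants minus mesophotic controls), -0.86 to 1.33 (transplants minus shallow) and 0.50 to 3.10 (mesophotic minus shallow). At label 12 these were -5.29 to -2.31, -6.08 to -2.58 and -1.78 to -0.10. From label 6 to 12 they were -4.59 to -1.19, -1.85 to 0.14 and -0.16 to 3.16 in transplants, mesophotic and shallow controls, with none called.

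The F value of depth by site, given with no test, was 9.75 by edgeR, 0.316 by limma, 0.959 by limma with the number of isogroups as a covariate and 3.30 at 100000 host counts. Leaving out the library of highest count in each group, an alternative chosen after seeing the data, gave F of 7.99 to 10.2, and -2.44 to -2.17 for the depth difference over the sites. DESeq2 turned the EFGB difference to 0.40. Within inferred blocks it was 0.23 in 1 EFGB block and 2.69 in 1 WFGB block. The rank correlation with the symbiont share was 0.145 (permutation p = 0.0288), and r was -0.0039 with host total and number of isogroups regressed out. With a prior count of 0.5 the transplants' median change from baseline to label 12 was -1.94. Over the 4 sites edgeR called 2 host genes of the lists of nitrogen, carbon dioxide and transport genes, and limma 1. Each was in the list of carbon dioxide and protons. Among the cell type lists, picked by words in gene names, edgeR called 4 of 6 gland cell isogroups lower and 1 of 6 of neurons lower. Those 4 include Mcavernosa10958 and Mcavernosa25637, named as mucin-like hormone receptors. The neuron list includes Mcavernosa13704, Mcavernosa30448 and Mcavernosa30449, named extended synaptotagmin-like. These names need not mark the cell types. Of the other lists edgeR called 1 of 16 of cilia higher, 1 of 13 of muscle higher and 2 lower, and 0 of 2 of the germ line. Limma called no member of the cell type lists, and edgeR called 5.02% of all isogroups higher and 7.99% lower. limma and DESeq2 called 0 to 16 and 64 to 424 isogroups in the 9 comparisons of the experiment, against 0 to 130 by edgeR. The cause of these differences was not tested.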
